A study of Homo sapiens with 7 samples.

Results

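The cells are H1, a widely used human embryonic stem cell line, cultured in E8, a defined medium whose growth factors are FGF2, TGFβ and insulin. The comparison described here sets wild-type H1 cells kept for 12 h in E8 with 1 µM XMD892 (n = 1 library) against wild-type H1 cells kept for 48 h in E8 alone (n = 2 libraries). XMD892 is a kinase inhibitor used for its action on ERK5, the kinase encoded by MAPK7. The series also holds 2 libraries at 24 h and 2 at 48 h of XMD892, at the same 1 µM, for 7 libraries in all. All genes with a mean of at least 10 normalised reads over the 12 h library and both E8 libraries were compared, which kept 16480 of the 19775 listed genes. Poly(A) RNA was selected with oligo(dT) beads and read as paired ends.

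Several features of the design bear on every value. The 12 h group has 1 library with a sample label, so its spread was taken from the other groups, and no value at 12 h has an error of its own. The labels do not say whether libraries of a group came from separate cultures, so the p-values reflect no more than how far these libraries differed, and that spread may be technical. The control cells were collected at 48 h and no vehicle is named for them, so the compound and the time in culture cannot be told apart. In bulk RNA, fewer cells of a type and less RNA per cell cannot be told apart either.

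Human pluripotent cells of this kind hold their state with the help of secreted factors that act back on the same cells. NODAL and its relative GDF3 signal through SMAD2 and SMAD3, LEFTY proteins block NODAL and are themselves SMAD targets, and FGF ligands signal through ERK1 and ERK2, which switch on their own inhibitors of the SPRY and DUSP families. ERK5 is a further MAP kinase, phosphorylated by MEK5 (MAP2K5), and activates MEF2 factors. Compounds related to XMD892 are also known to bind the bromodomains of BET proteins, readers of acetylated histones. Genes in the lists below are grouped by these roles.

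The listed genes carried 18528689 reads in the 12 h library, the fewest of the 7, and up to 24148186 in the others. Values, called levels here, are gene read counts after the authors' division by a single factor for each library. They can be compared between libraries for a gene, but not between genes, since they are not divided by gene length. A difference is a fitted log2 fold change of level + 1, called where the limma adjusted p (Benjamini-Hochberg over the 16480 genes) was under 0.05. The scale understates the change of genes with low levels.

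At 12 h, 1232 genes were called (7.48% of those tested), 422 higher (2.56%) and 810 lower (4.92%). The member counts of the lists below are to be read against these shares. The lists were chosen with earlier results of these data known, so such counts are a description. Among the called genes, 727 differed by at least 1 on the log2 scale, a doubling or more. The 12 h library lay outside the range of the E8 pair for 72.7% of all tested genes, so lying outside that range is common here and counts little alone. The 2 E8 libraries stood apart from each other along GC content. Their log2 difference had a Spearman correlation of -0.64 with transcript GC across 16128 genes, which are not independent, while the pairs at 24 h and 48 h gave -0.000562 and 0.213. Left without E8 replicate 1, the same test called 673 genes higher (4.08%) and 1179 lower (7.15%). Without E8 replicate 2 it called 1665 higher (10.1%) and 1259 lower (7.64%), which turned the balance to mostly higher. With the GC trend removed 1205 were higher and 1328 lower. In all 3 of the fits with all libraries, without E8 replicate 1 and without E8 replicate 2, 984 genes (5.97%) were called in the same direction, 347 higher (2.11%) and 637 lower (3.87%).

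**Figure D1:**
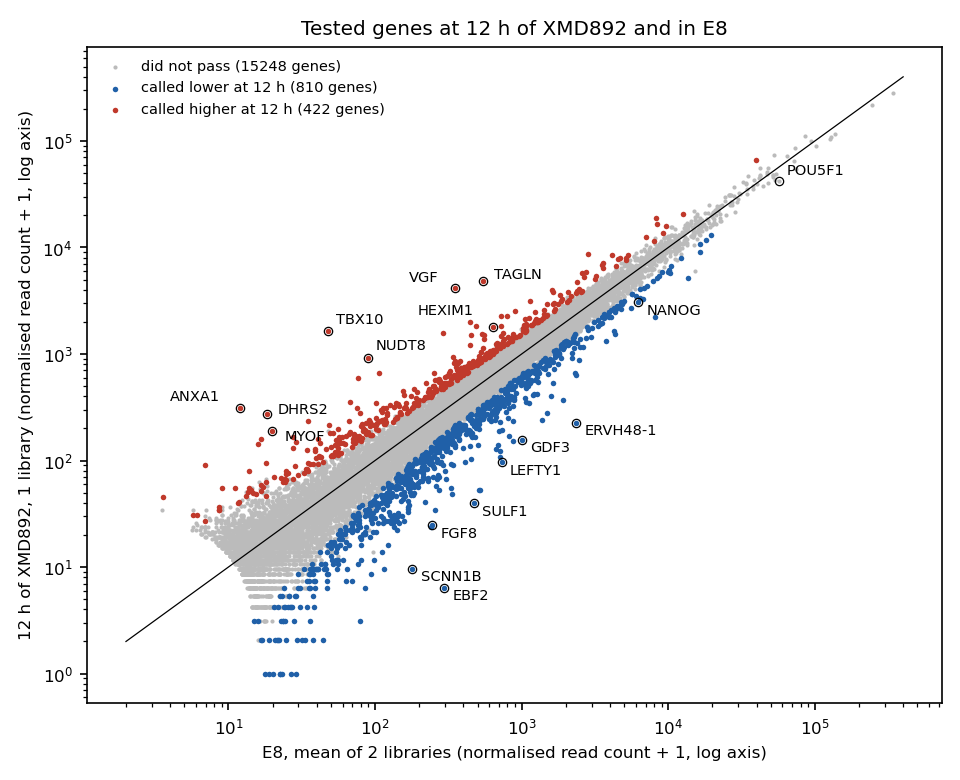
Level + 1 of each tested gene in E8 (mean of 2 libraries, horizontal log axis) and in the 12 h library (vertical log axis), with equality as a line and genes called by limma in red (422 higher) and blue (810 lower). TBX10 and ANXA1 lie far above the line and EBF2 and SCNN1B far below it, while POU5F1, called neither way in this fit, lies near it.

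**Figure D2:**
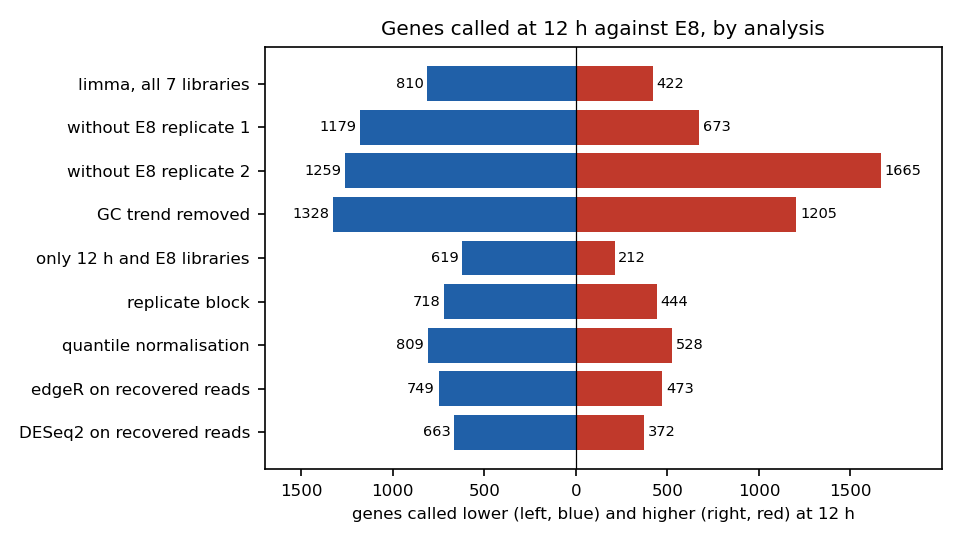
Number of genes called lower (left, blue) and higher (right, red) at 12 h against E8 in 9 analyses. The fit without E8 replicate 2 called 1665 genes higher, against 422 with all libraries, and calls lower were in the majority in all the other analyses shown.

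The stem cell state was checked first. POU5F1, a core pluripotency factor, had levels of 46006 and 67034 in E8 and 42265 at 12 h, a log2 difference of -0.39 that did not pass (limma adjusted p = 0.27). SOX2, its partner, had 5019 and 6618 in E8 and 4508 at 12 h (adjusted p = 0.26). For both factors the 12 h value lay below the E8 pair, and the call depended on 1 E8 library. Without E8 replicate 1 POU5F1 was lower by limma with a log2 difference of -0.67 (adjusted p = 0.014) and SOX2 with -0.55 (adjusted p = 0.012), and without E8 replicate 2 the differences were -0.12 and -0.15 and did not pass. LIN28A, an RNA-binding regulator of let-7, had a log2 difference of 0.17, DNMT3B, a DNA methyltransferase, of 0.22 and DPPA4, a chromatin protein of pluripotent cells, of -0.36, and none of the 3 was called. NANOG, a homeobox pluripotency factor, did fall. Its level was 6631 and 5818 in E8 and 3059 at 12 h, below both E8 libraries, with a log2 difference of -1.02 (SE 0.18, adjusted p = 0.00096). TERF1, a telomere protein abundant in these cells, fell from 15096 and 12325 to 5179. Over the list of 21 core pluripotency genes, 0 rose and 2 fell (9.52% called, near the 7.48% of all genes). The list had a median of -0.31 against 0.02 over all genes. Without E8 replicate 1 or without E8 replicate 2, 5 of them fell.

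Several of the secreted ligands fell. Of 25 tested growth factor ligands, with the NODAL antagonists and the co-receptor TDGF1, 9 fell and 0 rose (36% called, against 7.48% of all genes), and the list's median was -0.58. Leaving out E8 replicate 2 raised the falls to 14. NODAL, a TGFβ family ligand (chr10:70432315-70447951 of GRCh38, minus strand), had 598 and 782 in E8 and 137 at 12 h, so the 12 h library lay far below both. Its log2 difference was -2.31 (SE 0.26, adjusted p = 5.7e-06). GDF3, a ligand that shares the NODAL receptors, fell from 1055 and 963 to 156, a log2 difference of -2.69. FGF8, an embryonic fibroblast growth factor, had 248 and 241 in E8 and 23.6 at 12 h, a log2 difference of -3.32 (SE 0.40, adjusted p = 1.3e-05). The E8 pair for FGF8 was tight and about 10.4-fold above the 12 h library. FGF4, a further FGF made by pluripotent cells, fell from 251 and 230.5 to 22.5, a log2 difference of -3.36. WNT3, a ligand of the canonical WNT pathway, fell from 167 and 185 to 59.0 (log2 difference -1.56, adjusted p = 0.0094).

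Other ligands differed less or did not pass. BMP7, a bone morphogenetic protein, fell from 1122 and 1503 to 763 (adjusted p = 0.021), and WNT5B, which mostly signals outside the β-catenin route, from 96.0 and 95.8 to 31.1. BMP4 had 106 and 122 in E8 and 67.6 at 12 h, with an adjusted p of 0.26. FGF2, also supplied by the medium, had 1558 and 1177 and 1077 (adjusted p = 0.39). TDGF1, the cell-surface co-receptor of NODAL, had 11878 and 10254 and 7791 (adjusted p = 0.078). Each of these 3 genes was lower at 12 h than in either E8 library without passing the test. WNT5B, LEFTY2, BMP4 and TDGF1 were picked from the list after their values were seen.

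Of 14 tested targets of NODAL and TGFβ signalling 7 fell and 1 rose (57.1% called), with a median of -0.67, and 5 of the 7 that fell are NODAL, GDF3, LEFTY1, LEFTY2 and NANOG, already counted above. LEFTY1, an antagonist of NODAL, had 670.5 and 788 in E8 and 95.5 at 12 h, a log2 difference of -2.91 (SE 0.25, adjusted p = 1.4e-07). LEFTY2 fell from 182 and 234 to 63.3. The LEFTY genes are close copies of each other on chromosome 1, so reads could be split between them. SMAD7, a target and inhibitor of the pathway, had 1109.7 and 1530.3 and 1054 and did not pass (adjusted p = 0.39).

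Some genes of the primitive streak, the first embryonic mesendoderm, fell. Of 8 tested, 3 fell and 0 rose. Besides FGF8 and WNT3 this was MIXL1, a homeobox factor, with 264 and 247 in E8 and 33.3 at 12 h (log2 difference -2.90, adjusted p = 1.4e-06). The summed level of the 10 genes of the list in the file, tested or not, was 885 and 906 in E8 and 278 at 12 h. Most of the E8 sum was FGF8, MIXL1 and WNT3, so the drop in the sum largely restates these genes. TBXT, the brachyury gene, listed under its older symbol T, was too low for a difference to be detectable at this depth. The naive state list had 1 of 9 tested genes lower, NLRP7 of the oocyte and early embryo, and 0 higher.

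**Figure D3:**
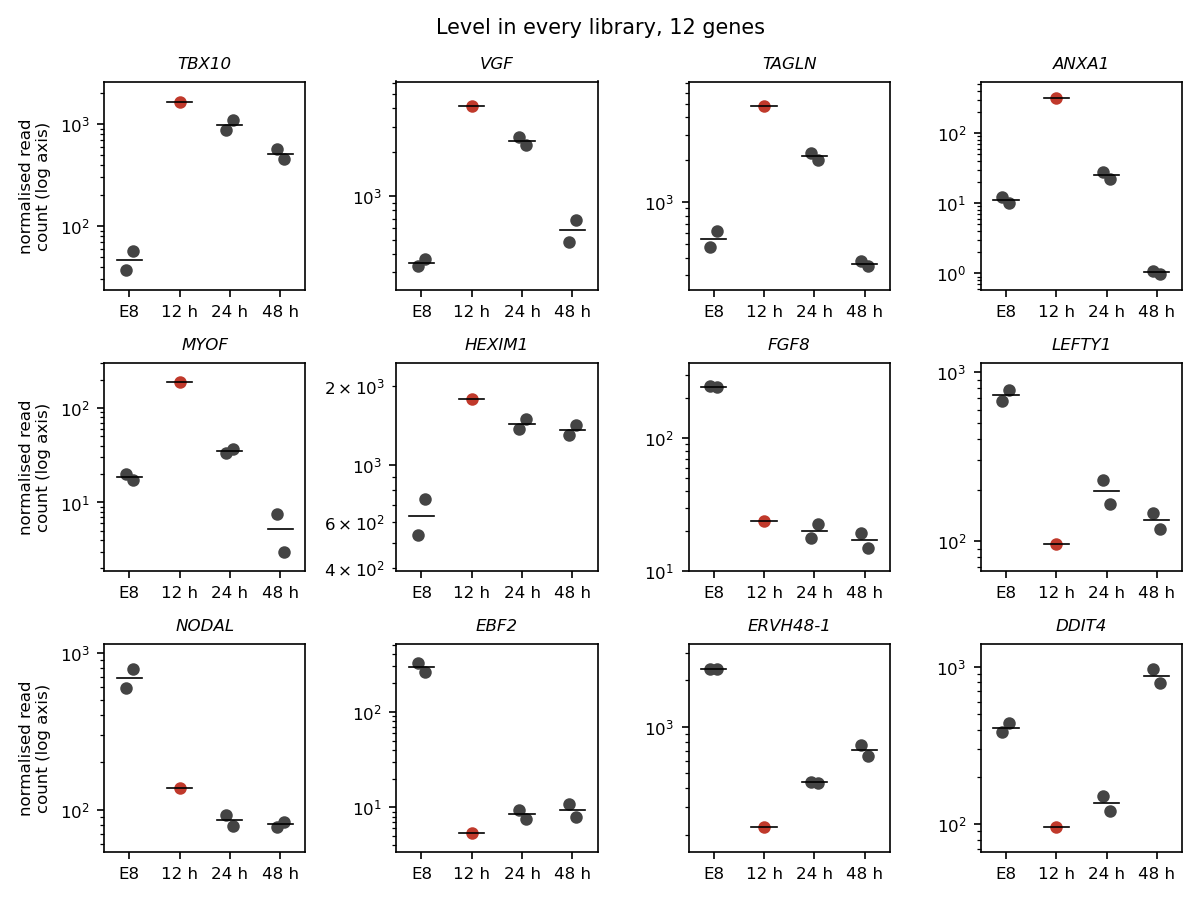
Level (log axis, scaled to each panel) of 12 genes in every library of E8, 12 h (red), 24 h and 48 h, with group means as bars. FGF8, NODAL, LEFTY1, EBF2 and ERVH48-1 were already far below both E8 libraries at 12 h, and ANXA1, TAGLN and MYOF stood highest at 12 h.

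The kinase pathways showed smaller differences in their own transcripts. MAPK7 itself had 711 and 727 in E8 and 673 at 12 h (log2 difference -0.09, adjusted p = 0.83), and MAP2K5 had 331 and 353 and 265 (adjusted p = 0.36). With limma 0 of 7 tested genes of the ERK5 cascade and MEF2 family were called, 2 had an unadjusted p under 0.05, and edgeR and DESeq2 each called 1, higher. Of 17 genes of FGF and ERK feedback, 4 fell and 0 rose (23.5% called, against 7.48% of all genes), with a median of -0.13. SPRY1, an inhibitor of receptor kinase signalling, had 1516 and 1398 in E8 and 769 at 12 h, a log2 difference of -0.92 (adjusted p = 0.0033). The others that fell were DUSP9, an ERK phosphatase (log2 difference -1.42), ETV1, an ETS factor (-0.86), and IL17RD, a membrane inhibitor of FGF signalling (-0.81). DUSP6, the cytoplasmic ERK phosphatase, had 3478 and 3637 and 3706 and was not called (adjusted p = 0.88), and nor were SPRY4 (log2 difference -0.12) and ETV4 (-0.18), chosen after their values were seen.

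Immediate early genes, which answer mitogens within minutes, moved in both directions. Of 17 tested, 2 fell and 1 rose. IER3, a survival factor, fell from 1722 and 1836 to 808 (log2 difference -1.14, adjusted p = 0.0004) and NR4A1, an orphan nuclear receptor, from 370.2 and 492 to 184. JUN, a subunit of AP-1, rose from 358 and 491 to 705, but its adjusted p of 0.048 lay near the threshold and the call was lost without E8 replicate 1 and without either 48 h library. EGR1 and FOS, the genes most used to read out ERK activity, were not called. EGR1 had 45.4 and 47.1 in E8 and 69.8 at 12 h (adjusted p = 0.28), and FOS had 203 and 198 and 235 (adjusted p = 0.62). MYC had 2201 and 2230.1 and 2672 (adjusted p = 0.39). Without E8 replicate 2, 3 immediate early genes rose.

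Among BMP targets the ID genes, inhibitors of bHLH factors, moved both ways. ID3 rose from 1227 and 1762 to 2975 (log2 difference 1.02, adjusted p = 0.0032) and ID4 from 148 and 129.7 to 254. ID1 fell from 1874 and 2036 to 1308 (adjusted p = 0.047) and ID2 from 1073 and 1019.6 to 667 (adjusted p = 0.046). SMAD6, an inhibitor of BMP signalling, fell from 385 and 513 to 172. The whole list had 2 higher and 4 lower of 12 tested. The 4 falls include ID1, ID2 and BMP7 at adjusted p values between 0.021 and 0.047, and the calls of ID1 and ID2 were lost when any library at 24 h or 48 h was left out. NOTCH genes had 2 of 12 lower and 0 higher, namely HEY1, a target factor, and DLL3, a ligand. WNT targets had 2 of 10 higher, LEF1 and TNFRSF19, and 2 lower, TCF7 and RNF43. Of these 4 calls TNFRSF19 passed whichever library was left out. TCF7 and RNF43 were lost without E8 replicate 1, TCF7 also without any library at 24 h or 48 h, and LEF1 without E8 replicate 2 or 48 h replicate 1.

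**Figure D4:**
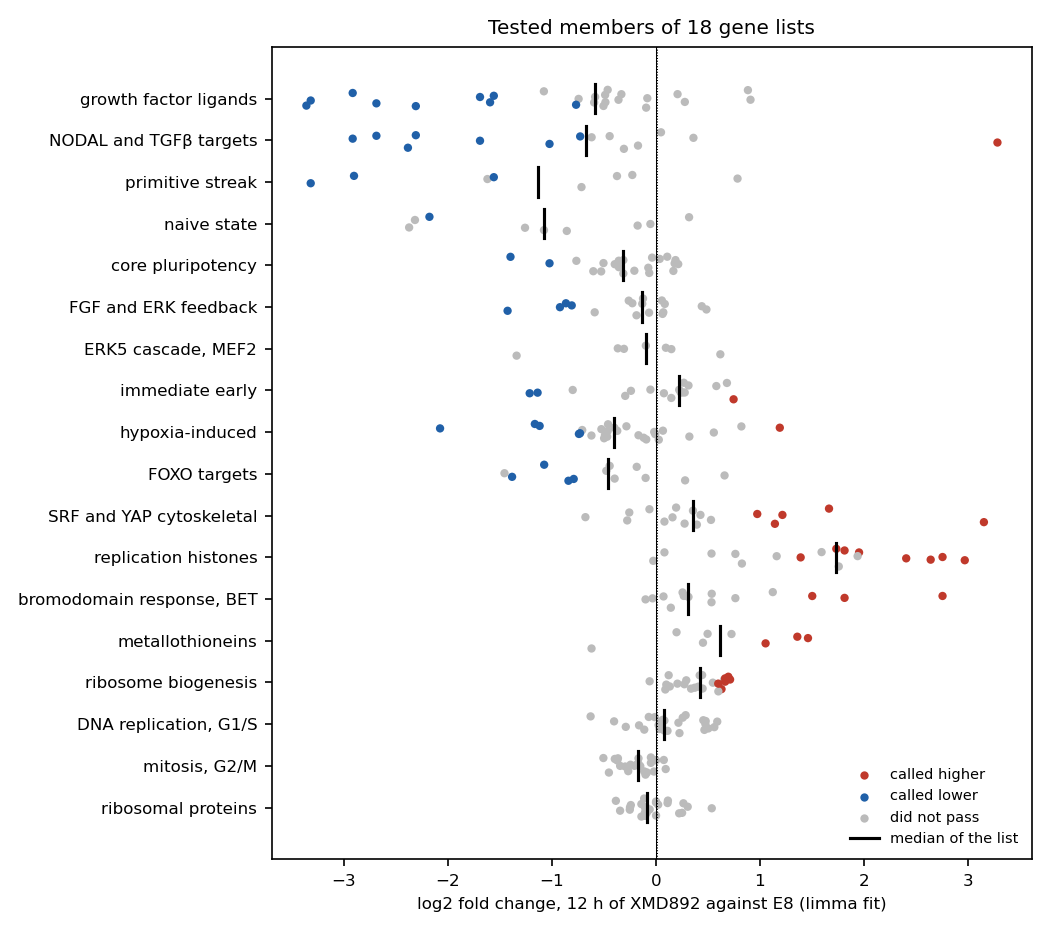
Fitted log2 fold change at 12 h against E8 of each tested member of 18 lists (points, red called higher, blue called lower, grey not passing), with each list's median as a bar and the median of all genes as a dotted line. Ligands and NODAL targets extend to the left and replication histones to the right. Ribosomal protein and cell cycle genes lie nearer 0 with 0 called, the mitotic genes mostly to its left (median -0.17).

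The largest rise was that of TBX10, a T-box transcription factor. Its level was 36.7 and 56.2 in E8 and 1656 at 12 h, and the 12 h library stood above every other library of the series. The log2 difference was 5.16 (SE 0.25, adjusted p = 1.7e-11). NUDT8, a mitochondrial Nudix hydrolase, had 74.2 and 102 and 908, a log2 difference of 3.37 (adjusted p = 1.5e-08). Both genes lie on the minus strand of chromosome 11 of GRCh38, TBX10 at chr11:67631303-67639560 and NUDT8 just downstream at chr11:67627938-67629930. Whether reads running on from TBX10 were counted for NUDT8 was not tested.

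Most of the other large rises started from low levels. ANXA1, a calcium-dependent phospholipid-binding protein (chr9:73151757-73170393), had 12.2 and 9.91 in E8 and 312 at 12 h, a log2 difference of 4.71 (SE 0.62, adjusted p = 4.7e-05). MYOF, a membrane repair protein of the ferlin family, rose from 20.1 and 17.4 to 190.0, a log2 difference of 3.28. For both genes the 12 h library stood apart from all the others, since ANXA1 was at 28.1 and 22.4 at 24 h and MYOF at 33.3 and 36.5. MAP1A, a microtubule-associated protein, rose from 14.0 and 15.7 to 143. VGF, a secreted neuropeptide precursor, rose from 331 and 366 to 4155, a log2 difference of 3.57 (SE 0.21, adjusted p = 2.3e-10). DHRS2, a short-chain dehydrogenase, rose from 14.0 and 20.7 to 273, a log2 difference of 3.93.

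TAGLN, the actin-binding protein transgelin, had 474 and 620.5 in E8 and 4847 at 12 h, a log2 difference of 3.16 (SE 0.20, adjusted p = 8.4e-10). It lies at chr11:117199321-117204782 on the plus strand and its 3′ end overlaps PCSK7 on the minus strand, so reads from the overlap cannot be told apart where strand is not used. PCSK7 had 434 and 689.9 and 844 and was not called (adjusted p = 0.11). TAGLN leads a list of 17 tested cytoskeletal targets of SRF and YAP, of which 5 rose and 0 fell. This was 29.4% called, against 7.48% of all genes, and the list's median was 0.36. MYL9, a myosin light chain, rose from 621 and 827 to 2278 (log2 difference 1.67, adjusted p = 1.4e-05). TPM1, a tropomyosin, rose from 2694 and 2459.8 to 5701, and CNN1, the actin-binding calponin, from 157 and 190.0 to 404. The actins themselves were not called, with ACTB at 89295 and 82696 in E8 and 110179 at 12 h (adjusted p = 0.26). CTGF and CYR61, usual readouts of YAP chosen after their values were seen, had log2 differences of -0.68 and 0.28 and did not pass. With E8 replicate 2 left out, 8 genes of the list rose. VIM, the intermediate filament vimentin, rose from 525 and 457 to 1813 (log2 difference 1.89, adjusted p = 1.6e-06).

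Of 17 tested replication-dependent histone genes 8 rose and 0 fell, the median was 1.74 and 15 lay above both E8 libraries (36.8% of all genes did). HIST1H4H, an H4 gene, had 75.1 and 75.2 in E8 and 597 at 12 h, a log2 difference of 2.97 (SE 0.25, adjusted p = 9.8e-08). HIST1H2BD, an H2B gene, rose from 30.6 and 37.2 to 234, and HIST1H2AC, an H2A gene, from 115 and 96.7 to 666. The summed level of all 22 such genes in the file was 686 and 715 in E8 and 2661 at 12 h. It was 1593 and 2333 in the 24 h pair and 1378 and 1515 in the 48 h pair, so all 5 treated libraries were above both E8 libraries. Within a histone type many of these genes are close copies, whose reads can be split. Most transcripts of replication-dependent histone genes lack a poly(A) tail. Of 9 other tested RNAs made without such a tail, a list chosen after values were seen, 1 rose, the mitochondrial tRNA gene MT-TH, and 0 fell. RN7SL2, a signal recognition particle RNA, had 1080.0 and 29262 in E8, 5968 at 12 h and 35432 and 14871 in the 24 h libraries, so it varied more within a group than between groups. The part of poly(A) selection in the histone values was not tested.

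HEXIM1, which holds the elongation factor P-TEFb inactive, had 537 and 739 in E8 and 1790.5 at 12 h, above every other library. The log2 difference was 1.51 (SE 0.20, adjusted p = 5.3e-05). In a list of 15 genes reported to respond to bromodomain inhibition, with BET proteins and P-TEFb subunits, 3 rose and 0 fell, with a median of 0.32. The other members that rose, HIST1H2BD and HIST1H2BK, are also in the histone list. Without E8 replicate 1, 5 rose. BRD2, a BET protein chosen after its values were seen, had 3622 and 4002 and 5532 and an adjusted p of 0.062.

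Some metallothioneins, small zinc- and copper-binding proteins, rose. Of 8 tested genes, counting the zinc exporter SLC30A1, 3 rose and 0 fell, with a median of 0.61. MT1E had 358 and 322 in E8 and 939 at 12 h (log2 difference 1.46, SE 0.21, adjusted p = 0.00013). MT1G rose from 807 and 633 to 1488 and MT1H from 131 and 91.7 to 283 (adjusted p = 0.014). MT2A had 909 and 806 and 1209.8, above both E8 libraries, and did not pass (adjusted p = 0.11). These genes are close copies side by side on chromosome 16 and single values are uncertain, but the summed level of all 9 in the file was 4185 and 3796 in E8 and 6452 at 12 h. The family is known to be switched on through metal response elements, searched here as TGCACNC and TGCGCNC on both strands. RefSeq promoters of GRCh38.p14, 250 bases before to 50 after the start, were found for 4 of the 8 genes, all with at least 1 match, as were 39.1% of 11591 promoters of tested genes. They are shown for MT1H, which rose, and MT2A, which did not pass, with matches in capitals.
MT1H, chr16:56669564-56669863, plus strand: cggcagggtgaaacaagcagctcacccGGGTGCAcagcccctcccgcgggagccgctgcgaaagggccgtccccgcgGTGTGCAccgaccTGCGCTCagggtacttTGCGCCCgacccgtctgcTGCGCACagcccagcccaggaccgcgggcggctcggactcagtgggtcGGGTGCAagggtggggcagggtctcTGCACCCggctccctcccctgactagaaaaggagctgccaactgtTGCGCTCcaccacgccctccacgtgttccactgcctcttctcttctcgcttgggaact
MT2A, chr16:56608334-56608633, plus strand: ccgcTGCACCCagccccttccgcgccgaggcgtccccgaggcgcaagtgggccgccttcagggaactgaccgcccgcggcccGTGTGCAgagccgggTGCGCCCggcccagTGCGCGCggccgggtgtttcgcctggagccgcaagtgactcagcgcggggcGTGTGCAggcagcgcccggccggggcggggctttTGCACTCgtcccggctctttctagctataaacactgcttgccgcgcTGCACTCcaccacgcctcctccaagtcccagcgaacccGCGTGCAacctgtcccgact
Each of the 2 promoters held 8 matches. MT1E, MT1F, MT1G and MT1M were not matched.

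Of 27 tested hypoxia-induced genes 5 fell and 1 rose (22.2% called, against 7.48% of all genes), with a median of -0.40. The median was -0.32 without E8 replicate 1 and -0.47 without E8 replicate 2, and how many were called depended on the E8 library used. The calls of PFKFB4, a regulator of glycolysis, and MXI1, a MYC antagonist, were lost when any library at 24 h or 48 h was left out. DDIT4, an inhibitor of mTORC1, had 383 and 439 in E8 and 96.6 at 12 h, a log2 difference of -2.07 (SE 0.23, adjusted p = 5.2e-06). BNIP3, a receptor for mitophagy, fell from 2527 and 2494 to 1157 (adjusted p = 0.0004), and PDK1, which restrains pyruvate dehydrogenase, from 1013 and 770.1 to 394. ADM, the peptide adrenomedullin, rose from 315 and 417 to 831 (adjusted p = 0.0033). The core of the hypoxia response element was searched as ACGTG and GCGTG on both strands, where overlapping matches count separately. It occurred in 19 of 23 matched promoters of the list and in 62.8% of all 11591, so a match is common. Of the 5 genes that fell, 3 had a match. The promoters of the 2 genes with the smallest adjusted p among those that fell show it in capitals.
DDIT4, chr10:72273674-72273973, plus strand: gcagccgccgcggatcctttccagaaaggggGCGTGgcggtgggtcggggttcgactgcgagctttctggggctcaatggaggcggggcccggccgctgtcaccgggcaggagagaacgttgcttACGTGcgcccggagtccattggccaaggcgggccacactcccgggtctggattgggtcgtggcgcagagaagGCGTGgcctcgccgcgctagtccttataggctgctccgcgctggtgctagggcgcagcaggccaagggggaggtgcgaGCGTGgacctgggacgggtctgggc
BNIP3, chr10:131981874-131982173, minus strand: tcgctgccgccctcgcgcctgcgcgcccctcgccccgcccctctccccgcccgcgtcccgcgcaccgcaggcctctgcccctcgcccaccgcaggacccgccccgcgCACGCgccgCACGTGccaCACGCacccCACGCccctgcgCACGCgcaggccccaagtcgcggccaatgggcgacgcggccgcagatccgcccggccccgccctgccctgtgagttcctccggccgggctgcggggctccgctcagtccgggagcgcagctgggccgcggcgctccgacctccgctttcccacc
There were 4 matches in the DDIT4 promoter and 6 in that of BNIP3. PDK1 and MXI1, which also fell, had 0 matches in this window.

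The largest falls included developmental and membrane genes. EBF2, a helix-loop-helix factor of mesenchymal and fat lineages, had 326 and 262 in E8 and 5.37 at 12 h, a log2 difference of -5.53 (SE 0.50, adjusted p = 2.2e-07). SCNN1B, which forms part of the sodium channel of epithelia, fell from 171 and 187 to 8.59, a log2 difference of -4.23. SULF1, which trims sulfate from heparan sulfate chains, fell from 487 and 459 to 38.6, a log2 difference of -3.58. For these 3 genes both E8 libraries were above all 5 treated libraries, with SULF1 at 185 and 165 in the 48 h pair. ERVH48-1, an RNA from an endogenous retrovirus (chr21:42916803-42925646), had 2365 and 2364 and 224, a log2 difference of -3.39 (SE 0.19, adjusted p = 2.1e-10). PTPRB, a receptor phosphatase of vessels, fell from 522 and 511 to 51.5, and TNMD, a tendon membrane protein, from 117 and 109.9 to 8.59. CDA, cytidine deaminase, fell from 96.0 and 126 to 12.9, RHOH, a small GTPase of blood cells, from 115 and 129.7 to 15.0, and the long noncoding RNA D21S2088E from 546 and 472 to 51.5. The clock repressor BHLHE41 had 34.9 and 38.0 in E8 and 1.07 at 12 h, the value of a single read, with an adjusted p of 0.0024.

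Some ribosome biogenesis genes rose by small amounts, and the ribosomal proteins were not called. Of 23 tested biogenesis genes 6 rose and 0 fell, with a median of 0.42, and 20 lay above both E8 libraries (36.8% of all genes did). POLR1A, the largest subunit of RNA polymerase I, rose from 2359.9 and 2577 to 4050.2 (log2 difference 0.72, adjusted p = 0.016), and NOLC1, a nucleolar phosphoprotein, from 5334 and 5289.8 to 8442. The count of rises was 13 without E8 replicate 2 and 0 when only the 12 h and E8 libraries entered the fit. Ribosomal protein genes had 0 of 25 called by limma, edgeR and DESeq2, with 2 at an unadjusted p under 0.05. The same tools called 0 of 26 genes of DNA replication and G1/S, of which 8 had an unadjusted p under 0.05. Of 24 mitotic genes limma and edgeR called 0 and DESeq2 1, lower, with 4 at an unadjusted p under 0.05. The mitotic median was -0.17, and 16 lay below both E8 libraries and 0 above, against 35.9% and 36.8% of all genes. Without E8 replicate 2 the medians of the ribosomal protein, replication and mitotic lists were 0.09, 0.14 and -0.24. Whether members of these lists were called depended on whether either E8 library was left out. For the replication and mitotic lists it also depended on whether the GC trend was removed. CDKN1B, the CDK inhibitor p27, fell from 974 and 1019.6 to 626 (adjusted p = 0.04), and its call was lost without any one of the treated libraries at 24 h or 48 h.

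FOXO targets had 4 of 12 lower and 0 higher (33.3% called, against 7.48% of all genes), with a median of -0.46. CCNG2, an atypical cyclin, led them, from 649 and 587 to 236 (limma adjusted p = 0.00025). ATF4 targets had 5 of 26 lower and 2 higher (26.9% called). Their median was -0.21, and -0.28 without E8 replicate 1 or -0.27 without E8 replicate 2. How many were called depended on which library was left out. CHAC1, which degrades glutathione, fell from 209.5 and 248 to 67.6, while SLC7A5, a transporter of large amino acids, rose from 7532 and 9234 to 16441 (adjusted p = 0.0012). ODC1, which makes putrescine, rose from 2757 and 2888 to 8613 (log2 difference 1.61, adjusted p = 3.4e-06), and SAT1, which breaks polyamines down, fell from 1075 and 1211 to 669. TXNIP, an inhibitor of thioredoxin and glucose uptake, had 212 and 253 in E8 and 222 at 12 h and was not called, against 1522 and 1403 at 48 h. Several other lists had 1 to 3 calls each, and where these came to 4.76% to 8.7% of a list, as for the heat shock, p53, oxidative phosphorylation, KLF, glycolysis and lysosomal genes, the share was near or below the 7.48% of all genes. HSPA8 of 13 heat shock genes, TP53I3 of 21 p53 targets, ARRDC3 of 8 arrestin and glucose-sensing genes and NDUFB3 of 20 oxidative phosphorylation genes were higher. KLF15 of 13 KLF genes and SLC16A3 of 21 glycolysis genes were lower. NRF2 targets had NQO1 higher and SLC7A11 lower of 11, MYC partners MXD1 higher and MYCL and MXI1 lower of 11, lysosomal genes ATP6V0C higher and WIPI1 lower of 23, clock genes ARNTL higher and BHLHE41 lower of 15, and receptor kinases FGFR3 higher and KDR lower of 17. Of these calls NDUFB3 was lost without E8 replicate 1, SLC7A11 without E8 replicate 1 or either 48 h library, MXI1 when any library other than E8 replicate 2 was left out, and FGFR3 without either 48 h library. Without E8 replicate 2 5 heat shock, 4 p53, 3 oxidative phosphorylation and 5 lysosomal genes were called higher, in a fit that called 10.1% of all genes higher against 2.56% with all libraries. For tRNA synthetases (20 genes), ER chaperones (18), fatty acid synthesis (10) and interferon response (14) limma, edgeR and DESeq2 called 0, with 6, 3, 1 and 1 at an unadjusted p under 0.05. When E8 replicate 2 was left out limma called 3 synthetases, 4 chaperones and 1 interferon gene higher.

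Calls among markers of other cell types went both ways, while the list medians lay below 0. The medians were -0.04 for neuroectoderm, -0.95 for trophoblast and amnion, -1.13 for mesoderm and cardiac and -0.44 for fibroblast. Over all genes the median was 0.02, and the primitive streak list above had -1.14. In the same order, 7 of 13, 5 of 7, 4 of 5 and 4 of 5 tested genes lay below both E8 libraries, against 35.9% of all genes. Of 13 tested neuroectoderm genes 2 rose and 2 fell. NES, the filament nestin, rose from 6531 and 9959.9 to 18781 and MAP2, a neuronal microtubule protein, from 85.6 and 63.6 to 308, while the forebrain factors FEZF1 and SIX3 fell. The call of SIX3 was lost when any library at 24 h or 48 h was left out. The summed level of the 16 list genes in the file was 12793 and 16735 in E8 and 24097 at 12 h, most of it NES. Trophoblast and amnion markers had 2 of 7 higher, IGFBP3 and ANXA3, and 3 lower, GATA2, KRT7 and GABRP, with summed levels over the 8 in the file of 1584 and 1633 in E8 and 1648 at 12 h. Without E8 replicate 2, GABRP was the only one of them lower. Mesoderm and cardiac markers had KDR, the VEGF receptor, lower of 5 tested, from 2743 and 2527 to 1160.4, and the summed level of the 7 in the file was 2922 and 2691 in E8 and 1287 at 12 h, most of it KDR. The other 4 tested were not called. Fibroblast markers had COL1A1 higher of 5 tested, from 481 and 589 to 1534, with summed levels of 6938 and 8213 in E8 and 6887 at 12 h. Adhesion genes had VIM and CLDN6 higher and FN1 lower of 8 tested. The part of other cells in the 12 h values was not tested.

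The later libraries show how the 12 h values stood in the time course. The 24 h against 12 h contrast called 70 genes (0.425%), 46 higher (0.279%) and 24 lower (0.146%) at 24 h, and the 48 h against 12 h contrast called 479 (2.91%), 247 higher (1.5%) and 232 lower (1.41%). These counts rest on the same single 12 h library and its assumed spread. Both counts depended on which libraries entered the fit. Without E8 replicate 1 they were 716 and 1509, and with E8 replicate 2 left out 704 and 1499. Without 24 h replicate 1 or 24 h replicate 2 the first was 32 or 153, without 48 h replicate 1 or 48 h replicate 2 it was 38 in each case, and the second was then 211 or 210. Among the 422 genes higher at 12 h than in E8, 0 were called higher still at 24 h or 48 h, 14 were lower at 24 h and 88 lower at 48 h. Among the 810 lower genes, 21 were called higher at 24 h than at 12 h and 1 lower, and 139 were higher at 48 h and 9 lower. The 12 h library is in both comparisons, so a gene chosen for an extreme 12 h value tends to come back in the next, and these counts are a description.

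ANXA1, MYOF and ANXA3 were called lower at 24 h than at 12 h, and IER3 and ERVH48-1 higher. ANXA1 had 312 at 12 h and 28.1 and 22.4 in the 24 h pair, a log2 difference of -3.58 (adjusted p = 0.011), and 1.08 and 0.99 in the 48 h pair. MYOF fell from 190.0 at 12 h to 33.3 and 36.5 at 24 h (adjusted p = 0.049), and ANXA3, an annexin found in trophoblast, from 620.5 to 202 and 175 (adjusted p = 0.0044). IER3 rose from 808 to 1692 and 1486 (adjusted p = 0.021) and stayed below both E8 libraries. ERVH48-1 rose from 224 to 439.5 and 434 (adjusted p = 0.029) and also stayed below both. Of the 25 ligands, limma, edgeR and DESeq2 called 0 at 24 h against 12 h, with 5 at an unadjusted limma p under 0.05. At 48 h against 12 h limma called 1 higher, WNT5B, and 2 lower, BMP2 and TGFB1. NODAL had 92.7 and 78.6 at 24 h and 77.8 and 83.3 at 48 h against 137 at 12 h (adjusted p = 0.33 and 0.13), and FGF8 had 17.7 and 22.4 and 19.4 and 14.9 against 23.6 (adjusted p = 0.88 and 0.64). TBX10 declined from 1656 at 12 h to 569 and 454 at 48 h (log2 difference -1.70, adjusted p = 0.00025), still above E8.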

How the data were processed

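RNA of 7 libraries of H1 cells was sequenced as paired ends after poly(A) selection, per the labels' protocols. The submitters' processing notes name Trimmomatic 0.36, STAR, featureCounts 1.5.3, DESeq2 1.26.0 and hg38. The gene annotation, strand setting and filters are not given in the sources used here. The values, deposited per gene symbol, are a signal: the authors scaled each library's gene read counts by a single factor. In each library 100% of the values were whole multiples of 1 read within 0.1 of a read, so whole reads were recovered. The file held 2 further columns, headed as 12 h of XMD, that match no sample label. They were not analysed here, so the 12 h group is the 1 labelled library. Symbols were matched to GENCODE 29 (97.6%) for coordinates and GC content.

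Log2(value + 1) was fitted with limma 3.58.1 (R 4.3.3, trended prior variance) with 1 mean per group over all 7 libraries, which leaves 3 residual degrees of freedom and assumes that the single 12 h library varies like the other groups. The same applies to the lone library left when a replicate is dropped. Genes with a mean of 10 over the 12 h and E8 libraries were tested, and those with an adjusted p (Benjamini-Hochberg) below 0.05 were called. The fit was tested on simulated data. Alternatives were edgeR 4.0.16 and DESeq2 1.42.0 on the recovered reads, other pseudocounts, filters and scalings, a replicate block, removal of the GC trend and each library left out.

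The comparison and its 45 gene lists were chosen with earlier results of these data known. Genes were named if in a fixed set, among the 12 largest changes each way called in all 3 fits with either group's mean at 100 or above, among up to 4 called members of each list, or among the 3 each way farthest apart at 24 h. Reading the last clause as the largest called difference was settled after values were seen, as were 5 further lists and any other gene named as such. Some genes that this rule selects are not reported here. Replicate numbers were not used to pair the samples in the main fit.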

Additional observations from a re-analysis of the deposited data

Results flagged for a closer look

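Genes called at 12 h whose later libraries lay on the other side of both E8 libraries, and differed from 12 h in limma, were singled out. The values are log2 differences from 12 h to 48 h. No group had the 4 samples that a test for a stray sample needs. The 12 h library enters both differences, so a gene that is extreme in that library alone would appear here.

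Of the genes that rose at 12 h, ANXA1 changed by -7.27 and MYOF by -5.03, and each 48 h library of ANXA1 held about 1 normalised read. TAGLN changed by -3.73 and the other contractile genes MYL9, TPM1 and CNN1 by -2.04, -1.28 and -1.81. COL1A1, a fibrillar collagen, changed by -2.16. ANXA3 changed by -2.68, and was already below E8 at 24 h, with a difference of -1.72. The metallothioneins MT1E, MT1G and MT1H changed by -2.41, -2.74 and -3.58. The amino acid transporter SLC7A5 changed by -1.31 and the NAD(P)H quinone reductase NQO1 by -1.705.

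Of the genes that fell at 12 h, DDIT4 changed by 3.16, the lactate exporter SLC16A3 by 2.09, BNIP3 by 1.40 and the transcriptional repressor BCL6 by 1.15. All 4 stood above both E8 libraries at 48 h.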

How the results depend on the processing

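Of 106 named genes, 97 were called at 12 h. Over 21 alternatives these gave 2033 values, of which 1979 kept their direction and call, 54 kept the direction but not the call, and 0 changed sign. With only the 12 h and E8 libraries in the fit 23 lost their call. DESeq2 gave BHLHE41 no adjusted p. Of genes never called, MAPK7 changed sign to 0.0046 without E8 replicate 1 and the GC trend, and TXNIP to 0.0664 without E8 replicate 2 (-0.1855 without replicate 1) and 0.1817 with the GC trend also removed. The median of all tested genes stayed between -0.0036 and 0.0394. Of the values of list medians, 815 moved by less than the spread between replicates and 130 by more.

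The count of genes called at 12 h was 2533 with the GC trend removed (1205 higher, 1328 lower). Removing the GC trend together with an E8 library was chosen after seeing the data and gave 1872 without replicate 1 (865 higher) and 2601 without replicate 2 (1430 higher). With only the 3 libraries compared 212 were higher. Leaving out each library in turn gave 1000 to 2924 called genes, 319 to 1665 higher and 681 to 1259 lower. Calls higher made up 34.3% of the calls with all libraries, 47.6% with the GC trend removed and 56.9% without E8 replicate 2.

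For 24 h against 12 h the counts were 120 with DESeq2, 45 with TMM scaling, 1446 with only those 2 groups, 295 and 286 with the GC trend removed and E8 replicate 1 or 2 left out, and 32 to 716 without each library. For 48 h against 12 h they were 1125 with the GC trend removed, 1354 with only those 2 groups, 1575 and 1572 with the GC trend removed and E8 replicate 1 or 2 left out, and 210 to 1509 without each library. The cause of these shifts was not tested.

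With the replicate block 1162 genes were called at 12 h (444 higher, 718 lower), 66 at 24 h against 12 h and 411 at 48 h against 12 h. Deviations of same-numbered libraries had Pearson correlations of -0.0342, -0.0525 and -0.0734 across genes, which are not independent. The GC difference within the E8 pair enters the correlations that involve E8. These values therefore cannot settle whether the replicate numbers mark a pairing.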

Other observations

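Some further genes stood out when the largest changes were read, and were put into lists after their values were seen, so their counts describe these libraries and support nothing further. Genes known from endothelial and blood-forming cells were mostly lower at 12 h, with 11 of 16 tested lower and 1 higher and a median of -1.59. ETS1, an ETS factor, fell from 1579 and 1379 in E8 to 280.2 (log2 difference -2.39, limma adjusted p = 9.8e-08). LDB2, a cofactor of LIM proteins, fell from 1016 and 736 to 235, and HHEX, a homeobox factor of blood and liver, from 149 and 192 to 37.6. TEK and TIE1, receptors that define endothelium, were not called, TEK with 36.7 and 41.3 in E8 and 45.1 at 12 h and TIE1 with 20.9 and 34.7 and 16.1. The gene that rose was LMO2, a cofactor of blood-forming cells, from 41.0 and 32.2 to 91.2 (adjusted p = 0.029). FLT1, a VEGF receptor, was 2009 and 1630.2 in E8 and 2625 at 12 h (adjusted p = 0.071).

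A list drawn up around HERV-H, an endogenous retrovirus active in human pluripotent cells, had 6 of 9 tested RNAs lower and 0 higher. Whether each member, ERVH48-1 included, holds HERV-H sequence was not checked. Besides ERVH48-1, HHLA1 fell from 340.5 and 321 to 54.8 and ABHD12B from 274 and 265 to 71.9. ESRG, a long noncoding RNA of pluripotent cells, had 26713 and 21794 in E8 and 27533 at 12 h and was not called (adjusted p = 0.61), so members of the list did not all differ alike.

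Matrix and annexin genes had 13 of 20 tested higher and 1 lower, FN1. SPP1, the matrix phosphoprotein osteopontin, rose from 313 and 270.2 to 1584 (log2 difference 2.44, adjusted p = 3.2e-07) and then stood at 463 and 430.2 in the 24 h pair and 159 and 123 in the 48 h pair. TNC, the matrix protein tenascin C, rose from 61.1 and 71.9 to 352 and then stood at 84.3 and 100.1 in the 24 h pair and 25.9 and 30.7 in the 48 h pair. For both genes the 12 h library was the highest of the 7 and the 48 h pair the lowest. FLNC, an actin crosslinker, rose from 375 and 519 to 2017 and was 295 and 221 at 48 h. Genes of regulated secretion had 5 of 16 higher, among them VGF and CHGA, the granule protein chromogranin A, from 48.9 and 107 to 276, and 2 lower, among them NTS, the peptide neurotensin, from 1234 and 979 to 497. STC1, a secreted glycoprotein, followed the course of DDIT4, with 792 and 601 in E8, 188 at 12 h and 164 and 161 at 24 h, before 921 and 825 at 48 h.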
